A study of Mus musculus with 36 samples.

Results

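The 9 genes described here encode parts of the LIF and FGF-ERK signalling pathways. They were taken by symbol from a fixed list: Lifr, Il6st, Stat3 and Socs3 on the LIF side, and Fgf4, Fgfr1, Spry2, Spry4 and Dusp6 on the FGF-ERK side. All 9 were found once in each of the 3 deposited count tables, which hold 25239 genes (P-body and cytoplasm fractions), 25229 genes (polysome-bound and total RNA) and 48440 genes (Ago2 knockout fractions). P-bodies are condensates in the cytoplasm that gather RNA with proteins of repression and decay, and the study asked which transcripts they hold in different cell types and whether those transcripts are translated once P-bodies are lost. RNA was sequenced from 36 samples in 16 groups, with 2 libraries in each P-body or cytoplasm group and 3 in each polysome or total RNA group.

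Naive mouse embryonic stem (ES) cells were grown with LIF, the MEK inhibitor PD0325901 and the GSK3 inhibitor CHIR99021. Primed ES cells were grown with activin A and basic FGF. Mouse embryonic fibroblasts (MEFs) were grown in serum. Cells at day 3 of reprogramming were MEFs carrying a doxycycline-inducible cassette of Oct4, Klf4, Sox2 and Myc, in serum with LIF and ascorbic acid, either with a control or with a knockdown of Nudt21, a factor in the choice of polyadenylation site. Ago2 knockout (KO) ES cells, which the study describes as naive, were a single-cell clone lacking the Argonaute protein that binds microRNAs. All cells used for the fractions carried GFP-tagged LSM14A, by which P-bodies were sorted from the cytoplasm. The cytoplasmic fraction was a resuspended pellet, spun from the lysate after nuclei were removed. Its libraries came from aliquots taken before sorting, so that this fraction still held P-bodies. The polysome and total RNA libraries came from naive ES cells of a single-cell clone in which DDX6, a helicase needed for P-bodies, carried a degron tag (FKBP12 F36V), either untreated (control) or after dTAG-13, which brings about the loss of the tagged protein. Cell state and culture medium changed together and cannot be told apart in comparisons between cell types.

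LIF binds the receptor LIFR together with the shared subunit gp130, the product of Il6st. The receptor-bound JAK kinases then activate the transcription factor STAT3, which turns on naive pluripotency genes and Socs3, an inhibitor of the same receptor. FGF4, made by ES cells, acts through FGFR1 and the RAS-RAF-MEK-ERK cascade, which moves ES cells out of the naive state and turns on its own inhibitors. Among these are Spry2 and Spry4, which act on the cascade above ERK, and Dusp6, a phosphatase that inactivates ERK.

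The marker genes matched the labels of the cells in most respects. The 7 naive markers, such as Zfp42 and Esrrb, summed to 1490 to 1730 CPM (reads scaled to a common library total) in the naive fractions and 124 to 167 CPM in the primed ones, and the 6 primed markers to 900 to 943 CPM in primed cytoplasm against 43.8 to 78.1 CPM in naive cytoplasm. The naive markers summed to 1760 to 1870 CPM in control total RNA and to 923 to 1050 CPM in Ago2 KO cytoplasm. The 8 fibroblast markers summed to 52000 to 57400 CPM in MEF cytoplasm, and the 3990 to 4250 CPM in naive cytoplasm were nearly all Fn1 (4120 CPM). The 5 lung epithelial markers were at 0 CPM in MEF cytoplasm but at 6.70 and 97.0 CPM in the MEF P-body libraries, where 2 of 5 reached 1 CPM. Their part in the MEF results was not tested. The 6 blood and endothelial markers stayed at or below 5.28 CPM in MEF and day 3 libraries, and their 308 to 336 CPM in naive cytoplasm were mainly Pecam1 (316 CPM). The 5 primitive endoderm markers summed to 14.5 to 18.2 CPM in naive and 26.2 to 28.5 CPM in primed cytoplasm. Nudt21 stood at 90.3 ± 2.01 CPM (SD, n = 2) in day 3 control cytoplasm and at 5.27 ± 0.574 CPM in the knockdown. Ago2 was at 4.43 ± 0.566 CPM in the cytoplasm of the Ago2 KO cells, and Ddx6 mRNA at 238 ± 16.6 and 204 ± 6.29 CPM (n = 3) in total RNA of control and degron cells, where the degron acts on the protein.

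Libraries of ES cell fractions had 6769727 to 12772173 reads assigned to genes, the MEF and day 3 fractions 19384697 to 31185799, the polysome and total RNA libraries 13308776 to 29362187 and the Ago2 KO libraries 15624342 to 17486206. The naive cytoplasm libraries stood apart from each other for several of the 9 genes. For some results that rest on them, values without 1 library are given. For others the range over alternative settings is given, which include other fits and each library left out. Levels below are CPM on TMM-scaled library sizes, mean ± SD, and fold changes are log2 values ± SE. The labels do not say whether replicates were separate cultures. The study describes the naive and primed samples as biologically independent and the polysome samples as biological replicates. For its sequencing as a whole it reports biological replicates. The p-values measure the spread between these libraries. Where 1 library of a pair is left out, the remaining one is assumed to vary like the other group. In these bulk libraries a lower level in fewer cells and a lower level in every cell cannot be told apart.

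The promoter sequences of Socs3 and Dusp6 are shown because these are the feedback genes read most directly as outputs of STAT3 and ERK. RefSeq promoters (GRCm38, 250 bases before to 50 after the start) were found for 7 of the 9 genes. The Socs3 promoter lies on the minus strand at chr11:117969317-117969616. This window lies within the Socs3 gene of GENCODE M21 (117966079 to 117970047), so RefSeq and GENCODE place the start differently. It holds the only match among the 7 to TTCNNNGAA, the core bound by STAT factors, here in capitals. The core begins 154 bases before the RefSeq start. Of all 27025 promoters, 8.5% hold this core on either strand, since it reads the same on both.
Socs3: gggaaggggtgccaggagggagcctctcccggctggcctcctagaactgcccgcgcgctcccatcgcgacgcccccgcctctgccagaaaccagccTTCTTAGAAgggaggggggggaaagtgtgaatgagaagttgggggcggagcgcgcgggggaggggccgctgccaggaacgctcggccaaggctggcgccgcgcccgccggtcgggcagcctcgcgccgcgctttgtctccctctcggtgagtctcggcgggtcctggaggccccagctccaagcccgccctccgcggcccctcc
The Dusp6 promoter lies on the plus strand at chr10:99262981-99263280 and holds 3 matches to CGGAA or its complement TTCCG, a core of the sites bound by ETS factors, which act downstream of ERK. The matches are in capitals. Of all promoters 30.3% hold at least 1 such core, as do 4 of the 7 found here, including Il6st with 3.
Dusp6: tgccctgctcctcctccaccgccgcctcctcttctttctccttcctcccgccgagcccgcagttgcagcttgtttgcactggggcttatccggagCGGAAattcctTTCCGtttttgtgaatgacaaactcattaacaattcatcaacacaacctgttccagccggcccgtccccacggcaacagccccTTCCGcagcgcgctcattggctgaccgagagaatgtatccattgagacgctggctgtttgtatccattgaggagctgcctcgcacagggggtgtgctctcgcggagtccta

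Because 1 of the cell lines lacks Ago2, the 3′ UTRs were searched for sites of microRNAs that are abundant in pluripotent or differentiated mouse cells. The mature sequences are those of RefSeq, with the seed (bases 2 to 8) in capitals.
let-7a-5p: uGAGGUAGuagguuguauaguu
miR-294-3p: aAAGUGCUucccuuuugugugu
miR-17-5p: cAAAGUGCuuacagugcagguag
A complement of the let-7 seed was found in the 3′ UTR of 2 of the 9 genes (8.9% of 20736 mouse genes have one), of the miR-294 seed in 2 (14.6%) and of the miR-17 seed in 4 (11.8%). The seed of miR-300-3p was also searched, and its complement was found in 0 of the 9 genes (9.1%). These shares are not matched for 3′ UTR length. The 4 genes with a miR-17 site have 3′ UTRs of 5641 (Il6st), 3701 (Stat3), 2302 (Fgf4) and 3559 bases (Spry4). The median over all genes was 953 bases. The miR-294 and miR-17 seeds overlap, so that a site of one is often a site of the other. Examples from the receptor subunit Il6st, from Stat3 and from Fgf4 are shown with the complement of the seed in capitals, in DNA letters as annotated.
The Il6st sites end at bases 851 and 4620 of its 3′ UTR of 5641 bases, the Stat3 sites at bases 84 and 257 of 3701, and the Fgf4 sites at bases 939 and 58 of 2302, in the order shown. A further miR-17 site of Stat3, at bases 498 to 504, and the miR-17 sites of Il6st and Fgf4 that overlap their miR-294 sites are not shown.
Il6st, miR-294 site: agactggttgaggaAGCACTTtatccag
Il6st, second miR-17 site: actttaaagcaaatGCACTTTgctagcc
Stat3, let-7 site: gacctcggagtgtgCTACCTCccccatg
Stat3, first miR-17 site: tttgggcaatctggGCACTTTttaaaat
Fgf4, let-7 site: aattctatccccatCTACCTCagagttc
Fgf4, miR-294 site: tacccctcaggaggAGCACTTtctctcg
No seed complement of these was found in the annotated 3′ UTRs of Lifr, Socs3, Fgfr1, Spry2 or Dusp6.

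The transcripts differed widely in form. Lifr (chromosome 15, 7090614 to 7197489, plus strand) has the longest transcript, 9655 bases, with a 3′ UTR of 6320 bases, longer than 98.2% of annotated 3′ UTRs. Il6st (chromosome 13, 112464070 to 112510086, plus strand) follows with 8678 bases, and Stat3 (chromosome 11, 100885098 to 100939540, minus strand) has 6042. Spry2 (chromosome 14, 105891947 to 105896819, minus strand) has the shortest, 2087 bases over 2 exons, and Socs3 (chromosome 11, 117966079 to 117970047, minus strand) the highest GC content, 58.7%, against a median of 49.1% over 21877 genes. Lifr has the lowest, 44.4%. Fgf4 (chromosome 7, 144847367 to 144865243, plus strand), Fgfr1 (chromosome 8, 25513654 to 25575718, plus strand), Spry4 (chromosome 18, 38586247 to 38601415, minus strand) and Dusp6 (chromosome 10, 99263231 to 99267489, plus strand) lie between these at 49.0% to 55.4%. All 9 are protein-coding genes in GENCODE M21 (mm10), and all carry the AU-rich element ATTTA in the 3′ UTR, as 65.4% of genes do. This share is not matched for 3′ UTR length.

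**Figure D1:**
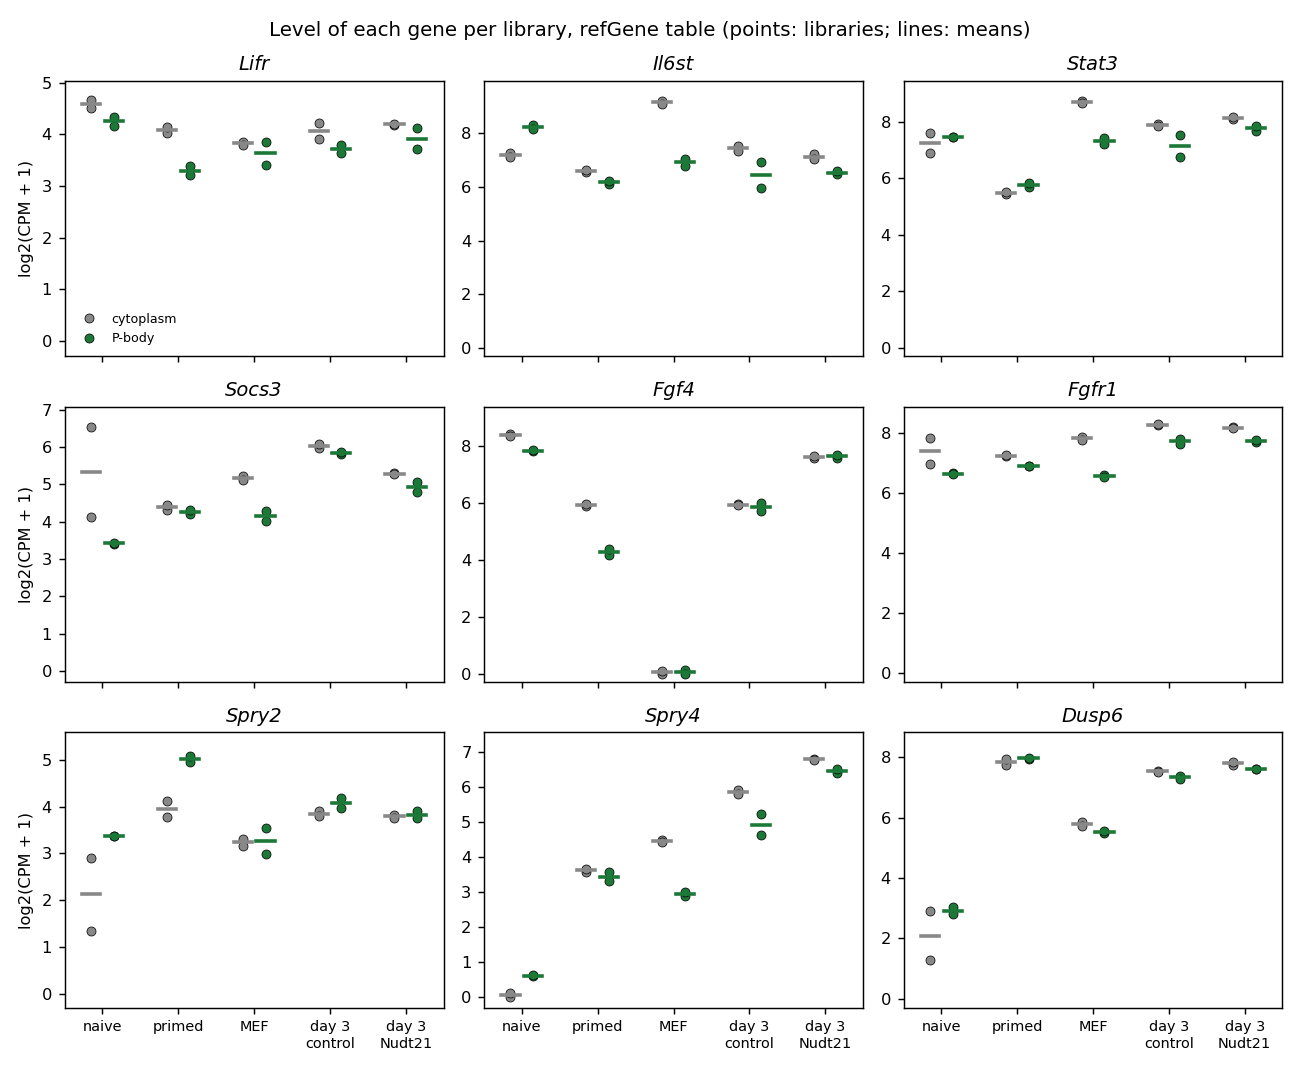
Level of each of the 9 genes per library in the fractions of 5 cell types, as log2(CPM + 1) on the y axis. Grey points are cytoplasm and green points P-body libraries, with a line at the mean of the plotted values of each group of 2. Fgf4 is near 0 in MEFs and Spry4 near 0 in naive cells, and the naive cytoplasm points lie apart for Socs3, Spry2 and Dusp6.

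The naive and primed cytoplasm differed in opposite ways for the LIF effector, the FGF ligand and the ERK feedback genes. Stat3 and Fgf4 were higher in naive cells, and Spry2, Spry4 and Dusp6 were higher in primed cells. Of the 9 genes, 3 were called higher and 3 lower in naive cells by the quasi-likelihood test of edgeR at an adjusted p under 0.05, where 22.1% and 21.6% of 16125 genes were called higher and lower. The median log2 fold change was 0.52 over the 9 genes and 0.00 over all genes.

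Fgf4 stood at 345 and 323 CPM in the naive cytoplasm libraries and at 58.3 and 61.1 CPM in the primed ones, with no overlap. This is a log2 fold change of 2.47 ± 0.12 (edgeR adjusted p of 0.000156). Stat3 stood at 195 and 118 CPM in naive and at 42.6 and 44.8 CPM in primed cytoplasm (1.83 ± 0.25, edgeR adjusted p of 0.00289). Both naive libraries lay above both primed libraries although they differed from each other. Over 10 alternative settings the fold change of Stat3 ranged from 1.41 to 2.12. Il6st was higher in naive cells by a smaller margin, at 153 and 138 CPM against 92.4 and 96.5 CPM (0.61 ± 0.12, edgeR adjusted p of 0.0095), and this call was lost without either primed cytoplasm library (edgeR adjusted p of 0.131 without replicate 1 and 0.11 without replicate 2).

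Dusp6, the ERK phosphatase, stood at 1.41 and 6.53 CPM in naive cytoplasm and at 215 and 245 CPM in primed cytoplasm. The difference of −5.86 ± 0.56 (edgeR adjusted p of 0.000983) was far beyond the spread between replicates. It ranged from −7.37 to −5.15 over 10 alternative settings. Spry4 had 0 and 1 reads in the naive cytoplasm and 88 and 111 reads in the primed cytoplasm. Scaled to library size, the primed level was 292 times the naive level, with a 95% exact interval of 51.8 to 11600 that covers counting error only. Spry2 stood at 6.51 and 1.54 CPM in naive and at 12.7 and 16.3 CPM in primed cytoplasm (−1.86 ± 0.60, edgeR adjusted p of 0.0485). Its value ranged from −3.25 to −1.19 over 10 alternative settings. The groups did not overlap, but the call was lost without primed replicate 1 (edgeR adjusted p of 0.141) and without primed replicate 2 (0.197).

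The receptors Lifr and Fgfr1 and the STAT3 target Socs3 were not called between the pluripotent states. Lifr stood at 24.5 and 21.7 CPM in naive and at 15.2 and 16.6 CPM in primed cytoplasm (0.52 ± 0.18, edgeR adjusted p of 0.0604). It was called without naive replicate 1 (edgeR adjusted p of 0.0433) and without naive replicate 2 (0.00602). Fgfr1 stood at 228 and 124 CPM in naive and at 149 and 154 CPM in primed cytoplasm, so that the primed libraries lay between the naive ones. Its log2 fold change was −0.30 without naive replicate 1 and 0.56 without naive replicate 2, called in both cases and opposite in sign. Socs3 stood at 90.9 and 16.4 CPM in naive and at 19.0 and 20.9 CPM in primed cytoplasm. Without naive replicate 2 Socs3 was called at 2.15 (edgeR adjusted p of 2.31e-10), and the groups overlapped as deposited.

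Of the 18 other genes listed for the LIF-STAT pathway, 5 were higher in naive and 5 in primed cytoplasm. Klf4, a STAT3 target of the naive network, was at 166 ± 45.2 CPM in naive and 6.14 ± 1.17 CPM in primed cells (4.74 ± 0.27, edgeR adjusted p of 0.000249). Bcl3 followed at 4.68 ± 0.65, with the replicates of its naive cytoplasm far apart (166 ± 129 CPM). Gbx2 and the cytokine signalling inhibitor Socs2 were higher in primed cells, with log2 fold changes of −2.11 ± 0.18 and −1.71 ± 0.17. Of 34 tested genes of the wider FGF-ERK list, 6 were higher in naive and 13 in primed cells. Over all genes, 22.1% were called higher in naive and 21.6% in primed cytoplasm. The kinase gene Rps6ka2 (0.95 ± 0.15) was higher in naive cells. Myc, at 0.617 ± 0.539 CPM in naive and 51.2 ± 7.94 CPM in primed cytoplasm, and the primed-state ligand Fgf5, at 0 and 25.2 ± 0.857 CPM, were higher in primed cells.

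Compared with MEFs, naive cytoplasm had more Fgf4 and Lifr and less Il6st, Stat3, Spry4 and Dusp6. Those are 2 genes higher and 4 lower, where 36% and 35.9% of 16871 genes were called higher and lower. Fgf4 had 0 and 2 reads in MEF cytoplasm and 4403 and 4201 in naive cytoplasm, a ratio of 8820 with a 95% exact interval of 2440 to 72900. Il6st, the gp130 gene, was at 587 and 542 CPM in MEFs, its highest level in any group (log2 fold change naive against MEF of −1.96 ± 0.12, edgeR adjusted p of 0.000106). Stat3 was also highest in MEF cytoplasm, at 428 and 409 CPM (−1.42 ± 0.25, edgeR adjusted p of 0.00404). Over 10 alternative settings its fold change ranged from −1.78 to −1.08, and that of Dusp6 from −5.25 to −3.02. Spry4, at 574 and 538 reads in MEFs, stood 542 times above naive cytoplasm, with an interval of 97.1 to 21400, and Dusp6 was at 57.4 and 52.3 CPM in MEFs (−3.78 ± 0.58, edgeR adjusted p of 0.00262). Lifr was higher in naive cells at 0.80 ± 0.16 (edgeR adjusted p of 0.00712), a call lost without MEF cytoplasm replicate 1 (0.0791) or replicate 2 (0.0963). Socs3, Fgfr1 and Spry2 were not called, with log2 fold changes of 0.61 ± 0.72, −0.37 ± 0.28 and −1.07 ± 0.61. Leaving out naive cytoplasm replicate 1 gave called values of −1.05, −0.83 and −2.40 for these genes, and leaving out replicate 2 gave a called value of 1.40 for Socs3.

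By day 3 of reprogramming 8 of the 9 genes had changed in the cytoplasm. Socs3, Fgf4, Fgfr1, Spry2, Spry4 and Dusp6 rose and Il6st and Stat3 fell, that is 6 and 2 genes, where 35.5% and 33.7% of 16108 genes were called higher and lower. The median log2 fold change was 0.73 over the 9 genes and 0.04 over all genes. These cells received LIF, which the MEFs did not by the study's methods, so that medium and reprogramming cannot be told apart. The comparisons with MEFs share the MEF libraries, and those with naive cells share the naive ones.

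Dusp6 rose from 57.4 and 52.3 CPM to 185 and 184 CPM (1.81 ± 0.07, edgeR adjusted p of 1.73e-12). Spry4 rose from 21.5 and 20.5 CPM to 59.0 and 54.8 CPM (1.49 ± 0.09, edgeR adjusted p of 5.63e-10), and Spry2 from 8.89 and 7.94 CPM to 14 and 12.9 CPM (0.73 ± 0.14). The day 3 and MEF libraries of Dusp6, Spry4 and Spry2 did not overlap. How many of all genes were separate in this way was not counted, and 35.5% and 33.7% of them were called higher and lower. Fgf4, a gene that Oct4 and Sox2 are known to activate together, went from 0 and 2 reads to 1634 and 1561 reads, a ratio of 1600 with an exact 95% interval of 441 to 13200. Socs3 rose from 36.3 and 33.8 CPM to 61.4 and 66.2 CPM (0.92 ± 0.08, edgeR adjusted p of 7.49e-08), and Fgfr1 from 236 and 219 CPM to 308 and 314 CPM (0.51 ± 0.06). Il6st fell to 180 and 161 CPM (−1.67 ± 0.07, edgeR adjusted p of 2.65e-12) and Stat3 to 244 and 231 CPM (−0.76 ± 0.06, edgeR adjusted p of 6.9e-09). Lifr was at 13.5 and 12.9 CPM before and at 14 and 17.6 CPM at day 3 (0.31 ± 0.14, edgeR adjusted p of 0.0537), and was called without day 3 control cytoplasm replicate 1 (0.48, edgeR adjusted p of 0.0129). In a fit of all 20 libraries Socs3 (0.86, edgeR adjusted p of 0.0847) and Spry2 (0.68, edgeR adjusted p of 0.0923) were not called.

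Of the wider LIF-STAT list of 18 genes 7 rose and 8 fell at day 3, among them Klf4 (2.65 ± 0.07) in the upward and Bcl3 (−1.83 ± 0.12) and Jak2 (−1.21 ± 0.10) in the downward direction. Of 34 tested genes of the wider FGF-ERK list 13 rose and 12 fell. The shares over all genes were 35.5% called higher and 33.7% lower. The ETS factors Etv5, from 46.6 ± 2.95 to 254 ± 3.99 CPM, and Etv1 rose most, and the early response gene Ier3 (−2.15 ± 0.10) and the kinase gene Rps6ka2 (−1.91 ± 0.08) fell most. The reprogramming cassette encodes Klf4 and Myc, and reads from it cannot be told apart from those of the endogenous genes in this table.

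**Figure D2:**
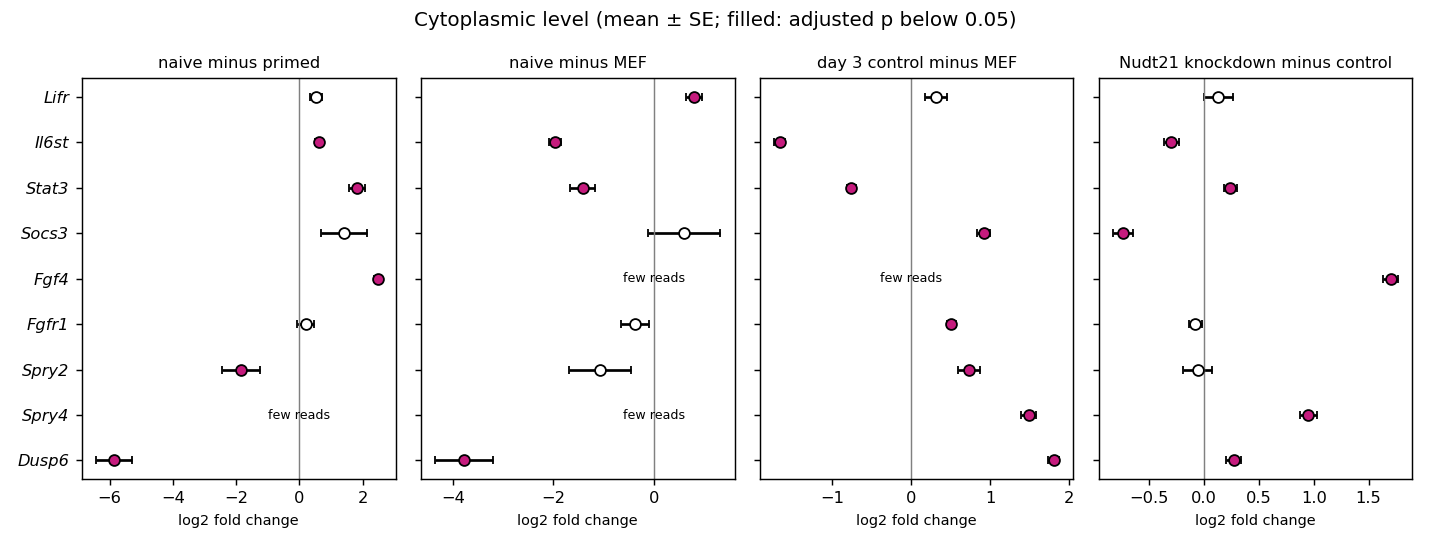
Log2 fold change of the cytoplasmic level of each gene in 4 comparisons, mean ± SE, with x axes that differ between the panels. Filled points passed an edgeR adjusted p under 0.05, and "few reads" marks genes with at most 2 reads in both libraries of a group, for which ratios are in the text. Dusp6 lies to the left in both naive comparisons and to the right at day 3.

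Knockdown of Nudt21 moved 6 of the 9 genes in day 3 cytoplasm, 4 up and 2 down, where 24.6% and 25% of 15990 genes were called higher and lower. Fgf4 was at 61.0 and 59.8 CPM in control and at 190 and 201 CPM in knockdown cells (1.70 ± 0.07, edgeR adjusted p of 8.51e-12). Spry4 went from 59.0 and 54.8 CPM to 110 and 109 CPM (0.95 ± 0.08, edgeR adjusted p of 1.77e-08). Dusp6 (0.27 ± 0.07) and Stat3 (0.24 ± 0.06) rose by less, and Stat3 was not called without control cytoplasm replicate 2 (edgeR adjusted p of 0.0677). Socs3 fell from 61.4 and 66.2 CPM to 38.7 and 37.4 CPM (−0.74 ± 0.09, edgeR adjusted p of 1.67e-06), close to the MEF level of 36.3 and 33.8 CPM. Il6st fell at −0.30 ± 0.07 and was not called without control cytoplasm replicate 1 (edgeR adjusted p of 0.0526). Lifr, Fgfr1 and Spry2 were not called, at 0.13 ± 0.13, −0.08 ± 0.06 and −0.06 ± 0.13. When all 20 libraries were fitted together the count fell from 6 to 2 genes.

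Of the wider lists, 6 of 18 LIF-STAT genes rose and 3 fell, and 15 of 33 FGF-ERK genes rose and 7 fell under the knockdown. The shares over all genes were 24.6% called higher and 25% lower. The phosphatase gene Ptpn11, which links receptors to RAS, rose from 69.1 ± 2.24 to 151 ± 0.144 CPM (1.14 ± 0.07, edgeR adjusted p of 8.03e-10), and the kinase gene Rps6ka3 from 21.3 ± 0.279 to 47.6 ± 5.46 CPM. Klf4 (0.99 ± 0.07) and the RAS pathway inhibitor Spred2 (0.92 ± 0.10) also rose. Etv1 (−1.24 ± 0.11), Rps6ka1 (−0.74 ± 0.10), Cish (−0.54 ± 0.10) and Jak2 (−0.52 ± 0.11) fell.

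Levels were compared between the genes per kilobase of the longest annotated transcript. Which transcripts the cells used was not determined. The study reports shorter 3′ UTRs after Nudt21 suppression, so the lengths may not hold there. In naive cytoplasm Fgf4 was highest at 110 CPM per kb and did not overlap the next gene, Fgfr1, at 34.9. Fgfr1, Stat3, Socs3 and Il6st followed with neighbours that overlapped, then Lifr at 2.39, Spry2 at 1.93 and Dusp6 at 1.42 CPM per kb, also overlapping. In primed cytoplasm Dusp6 was highest at 82.2 CPM per kb and Lifr lowest at 1.65, and only Stat3 and Spry2 overlapped as neighbours. In MEF cytoplasm Stat3 (69.3) and Il6st (65.1) led with overlapping libraries, and Fgf4 was last. At day 3 Dusp6 (66.0) and Fgfr1 (61.7) led in control cells, and Dusp6 (79.4) and Fgf4 (64.5) in knockdown cells. Lifr stayed between 1.37 and 2.39 CPM per kb in the cytoplasm of these 5 cell types, where its partner Il6st ranged from 10.9 to 65.1.

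P-body enrichment, the ratio of P-body to cytoplasm, was then examined in each cell type. In naive cells Il6st was P-body-enriched and Fgf4 P-body-depleted, 1 gene each way, where 22.6% and 15.4% of 15630 genes were called higher and lower. The median log2 enrichment was 0.17 over the 9 genes and −0.06 over all genes. Il6st had 310 and 284 CPM in P-bodies, against 153 and 138 CPM for cytoplasm (1.03 ± 0.11, edgeR adjusted p of 0.0018). It was called under all 10 alternatives run for this comparison. Fgf4 stood at 225 and 231 CPM in P-bodies against 345 and 323 CPM (−0.55 ± 0.10, edgeR adjusted p of 0.00951). This call was lost without P-body replicate 1 (edgeR adjusted p of 0.193) and without P-body replicate 2 (0.171).

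The other 7 genes were not called in naive cells. The P-body libraries lay close together, with Socs3 at 9.64 and 9.73 CPM, Spry2 at 9.32 and 9.37 CPM, and Stat3 at 174 and 176 CPM. The cytoplasm libraries did not: Socs3 was at 90.9 and 16.4 CPM, Spry2 at 6.51 and 1.54 CPM, and Stat3 at 195 and 118 CPM. Without cytoplasm replicate 1, the log2 enrichment was 2.60 for Spry2, 0.57 for Stat3, −0.76 for Socs3 and −0.31 for Fgfr1. Without cytoplasm replicate 2 it was 2.23 for Dusp6, 0.54 for Spry2, −0.14 for Stat3, −3.21 for Socs3 and −1.17 for Fgfr1. Over all 10 alternatives the value of Dusp6 ranged from 0.02 to 2.23. The direction of Stat3 thus turned with the cytoplasm library used, and those of Socs3, Fgfr1 and Spry2 did not. Spry4 had 5 and 6 reads in P-bodies and 0 and 1 in the cytoplasm, a ratio of 13.8 with a 95% exact interval of 2.01 to 594. Lifr had 19.3 and 16.8 CPM in P-bodies, against 24.5 and 21.7 CPM for cytoplasm (−0.35 ± 0.16, edgeR adjusted p of 0.145), and Dusp6 overlapped between the fractions.

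In primed cells 2 genes were P-body-enriched and 4 depleted, where 26.5% and 24.2% of 16177 genes were called higher and lower. The median was −0.21 over the 9 genes and 0.00 over all genes. Spry2 had 30.1 and 32.9 CPM in P-bodies, against 12.7 and 16.3 CPM for cytoplasm (1.09 ± 0.13, edgeR adjusted p of 2.23e-05). Stat3 was enriched by less, at 50.7 and 55.9 against 42.6 and 44.8 CPM (0.27 ± 0.09, edgeR adjusted p of 0.0291), and this was not called without cytoplasm replicate 1 (0.073) or P-body replicate 2 (0.258). Fgf4 was the most depleted, at 16.8 and 20 CPM in P-bodies against 58.3 and 61.1 CPM in the cytoplasm (−1.72 ± 0.11, edgeR adjusted p of 5.57e-08). The receptor genes were all depleted: Lifr at 8.23 and 9.47 against 15.2 and 16.6 CPM (−0.87 ± 0.15), Il6st at 68.4 and 72.5 against 92.4 and 96.5 CPM (−0.44 ± 0.08), and Fgfr1 at 120 and 118 against 149 and 154 CPM (−0.37 ± 0.06). Dusp6, abundant in these cells, had 246 and 254 CPM in P-bodies, against 215 and 245 CPM for cytoplasm (0.10 ± 0.07, edgeR adjusted p of 0.234), and was called without cytoplasm replicate 2 (0.19, edgeR adjusted p of 0.0106). Socs3 and Spry4 were not called, at −0.16 ± 0.12 and −0.21 ± 0.17. A fit of all 20 libraries called 3 genes in place of 6.

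In MEFs none of the 8 tested genes was P-body-enriched and 5 were depleted, Il6st, Stat3, Socs3, Fgfr1 and Spry4, where 26.6% and 28.7% of 16198 genes were called higher and lower. The median was −1.12 over the 8 genes and 0.03 over all genes. Fgf4 had 2 and 0 reads in P-bodies and 0 and 2 in the cytoplasm and was not tested. Il6st stood at 131 and 107 CPM in P-bodies against 587 and 542 CPM in the cytoplasm (−2.20 ± 0.11, edgeR adjusted p of 2.2e-06), which placed it at the 2.1 percentile of all genes tested. Spry4 (−1.59 ± 0.16) went from 21.5 and 20.5 CPM in the cytoplasm to 6.39 and 7.10 CPM in P-bodies, and Stat3 (−1.34 ± 0.09) from 428 and 409 to 173 and 148 CPM. Fgfr1 (−1.23 ± 0.09) and Socs3 (−1.01 ± 0.13) had separate groups too. Each of the 5 was called under all 10 alternatives. Lifr (−0.16 ± 0.18), Spry2 (0.09 ± 0.22) and Dusp6 (−0.23 ± 0.11) were not called, but Lifr was without P-body replicate 1 (−0.40, edgeR adjusted p of 0.0458) and Dusp6 without P-body replicate 2 (−0.27, edgeR adjusted p of 0.0358).

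In day 3 control cells none of the 9 genes was called (0), where 0.196% and 0.45% of 15786 genes were called higher and lower. An unadjusted p under 0.05 by edgeR was found for 4 of the 9 and for 3899 of the 15786 genes. DESeq2, a fit without a filter and a fit of all 20 libraries each called 4 genes, all depleted. The P-body libraries differed for Il6st (121 and 60.5 CPM) and Stat3 (184 and 106 CPM), but both lay below the cytoplasm, at 180 and 161 CPM and at 244 and 231 CPM. The log2 enrichments were −0.88 ± 0.28 for Il6st, −0.88 ± 0.20 for Spry4, −0.68 ± 0.22 for Stat3 and −0.50 ± 0.11 for Fgfr1. Without P-body replicate 1 these 4 and Spry2 (0.46) were called, and without P-body replicate 2 the same 4 were. The count over all genes went from 102 to 8752 without P-body replicate 1 and to 4896 without P-body replicate 2. In Nudt21 knockdown cells Il6st (−0.61 ± 0.10), Fgfr1 (−0.47 ± 0.09), Stat3 (−0.38 ± 0.09) and Spry4 (−0.35 ± 0.09) were P-body-depleted, 4 of the 9 genes, where 12.8% of 15995 genes were called lower and 9.04% higher. Without either cytoplasm library only Il6st was called, without P-body replicate 2 Socs3 (−0.50) and Lifr (−0.50) were called as well, and in a fit of all 20 libraries none (0). Fgf4 overlapped between fractions in both conditions, at 62.3 and 52.2 CPM in P-bodies against 61.0 and 59.8 CPM in control cells, and at 193 and 203 against 190 and 201 CPM in knockdown cells.

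In Ago2 KO ES cells none of the 9 genes was called (0), where 5.47% and 1.05% of 16808 genes were called higher and lower. An unadjusted p under 0.05 by edgeR was found for 3 of the 9 and for 4031 of the 16808 genes. All 9 values lay below 0, with a median of −0.56 against 0.04 over all genes. The share of all genes below 0 was not counted. Il6st, Spry2 and Dusp6 overlapped between the fractions, Spry4 and Dusp6 had few reads, and Spry2 ranged from −0.5 to 0.05 over 9 alternatives. Il6st had 28 and 37.7 CPM in P-bodies, against 36.5 and 61.5 CPM for cytoplasm (−0.57 ± 0.30, edgeR adjusted p of 0.284), where the naive cells had 310 and 284 against 153 and 138 CPM. Stat3 (−0.67 ± 0.25), Fgfr1 (−0.72 ± 0.26) and Fgf4 (−0.43 ± 0.26) were not called. With the replicate number as a block, Stat3 (−0.67) and Fgfr1 (−0.70) were called as depleted. Without cytoplasm replicate 1, the values were −1.02 for Il6st, −1.08 for Fgfr1, −0.91 for Stat3, −0.74 for Lifr and −0.69 for Fgf4. The 2 Ago2 KO cytoplasm libraries differed from each other more than any other of the 24 replicate pairs (chi-square of 306 per degree of freedom). Spry4 had 1 and 1 reads in P-bodies and 6 and 7 in the cytoplasm, and its cytoplasm level was 6.75 times the P-body level, with a 95% exact interval of 1.53 to 61.6. The Ago2 KO table was made with another gene annotation, and the difference from naive cells was not tested.

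**Figure D3:**
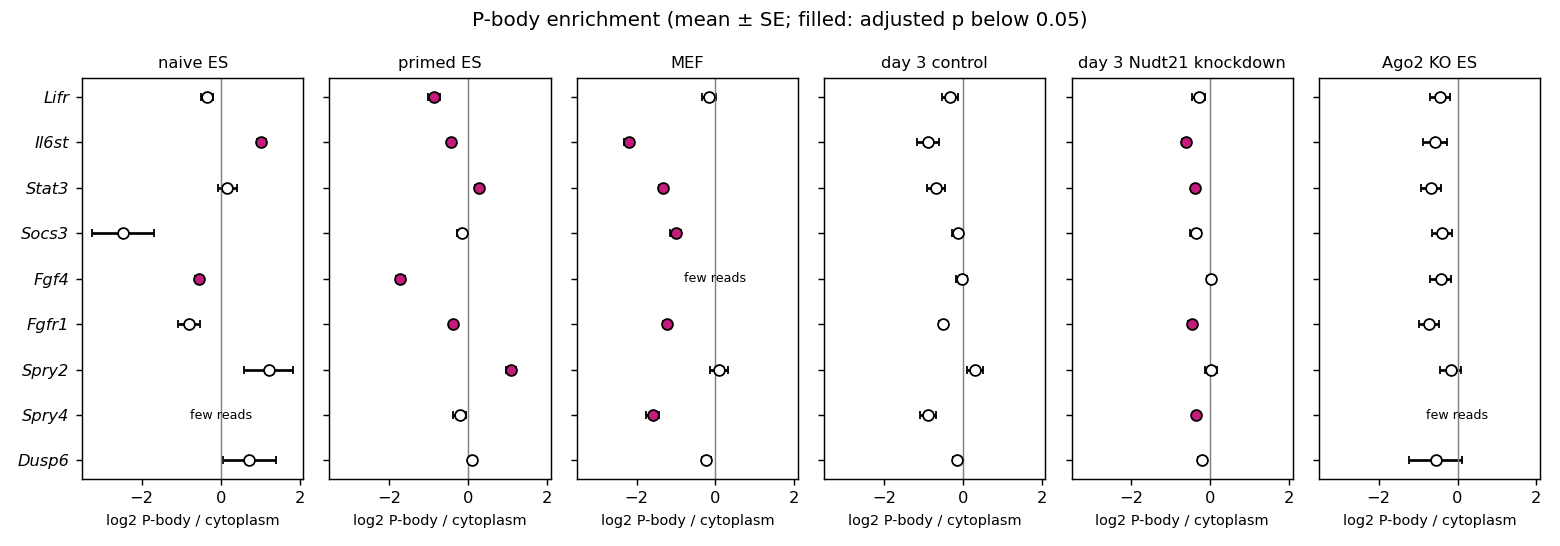
Log2 ratio of P-body to cytoplasm for each gene in 6 cell types on a shared x axis, mean ± SE. Filled points passed an edgeR adjusted p under 0.05, and "few reads" marks Fgf4 in MEFs and Spry4 in naive and Ago2 KO cells. Il6st lies at 1.03 in naive cells and below 0 in the other 5 cell types.

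The difference in enrichment between cell types was tested directly. Between naive and primed cells it was called for Il6st and Fgf4, both higher in naive cells, and for Spry4, 3 genes, where 13.9% and 11.4% of 17199 genes were called higher and lower. Il6st differed by 1.33 ± 0.13 (edgeR adjusted p of 0.00029) and Fgf4 by 1.03 ± 0.14 (edgeR adjusted p of 0.00127), and both were called under all 14 alternatives. Fgf4 was depleted in both states, and less so in naive cells. The fitted value of Spry4 rests on 1 naive cytoplasm read, depends on the prior count of the fit and was not called without naive cytoplasm replicate 1 (edgeR adjusted p of 0.0519) or without either naive P-body library (0.0565 and 0.0636). Without naive cytoplasm replicate 1 the difference was 1.36 for Spry2 and −0.74 for Socs3. Without replicate 2 it was −0.70 for Spry2, −3.20 for Socs3 and 1.99 for Dusp6. The value of Dusp6 ranged from −0.22 to 1.99 over all 14 alternatives. Between naive cells and MEFs the difference was called for Il6st (3.04 ± 0.17, edgeR adjusted p of 6.6e-06), Stat3 (1.32 ± 0.27, edgeR adjusted p of 0.00295) and Spry4, again 3 genes and all higher in naive cells, where 21.5% and 19.8% of 18143 genes were called higher and lower. Without naive cytoplasm replicate 1 Fgfr1 (0.71) and Spry2 (2.30) were called beside them, and without replicate 2 Socs3 (−2.40) and Dusp6 (2.27) were. Of the 3 genes, Il6st and Stat3 had at least 1533 reads in every library. Over all 14 alternatives the difference between naive cells and MEFs ranged from −0.13 to 0.71 for Fgfr1 and from 0.25 to 2.30 for Spry2. It ranged from −2.40 to 0.04 for Socs3 and from 0.04 to 2.27 for Dusp6.

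Between day 3 control cells and MEFs the difference was called for Il6st (1.37 ± 0.32, edgeR adjusted p of 0.018), Socs3 (0.92 ± 0.20, edgeR adjusted p of 0.0142) and Fgfr1 (0.77 ± 0.14, edgeR adjusted p of 0.00704), all less depleted at day 3, where 9.59% and 5.13% of 17488 genes were called higher and lower. These calls depended on single libraries. Without either day 3 control cytoplasm library, or without MEF cytoplasm replicate 1, none of the 9 was called (0), with edgeR adjusted p of 0.0655 to 0.14 for the 3 genes. Without MEF cytoplasm replicate 2 or MEF P-body replicate 2 only Fgfr1 was, and without MEF P-body replicate 1 Il6st was lost (0.056). Without day 3 control P-body replicate 2, Spry4 (0.96) and Stat3 (0.97) were called as well. Between Nudt21 knockdown and control cells no gene of the 9 was called, where 0% and 0.0118% of 16973 genes were called higher and lower. An unadjusted p under 0.05 by edgeR was found for 1 of the 9, Spry4, and for 819 of the 16973 genes. Without control P-body replicate 1, the difference was 0.81 for Il6st, 0.85 for Spry4 and 0.71 for Stat3, all less depleted in knockdown cells. The lowest values over 14 alternatives were −0.1, 0.32 and 0.02 for these genes.

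Among the wider lists, 4 LIF-STAT genes were enriched and 4 depleted in naive P-bodies, with Socs2 (111 ± 1.05 against 35.0 ± 6.93 CPM, 1.66 ± 0.16) and Gbx2 (1.07 ± 0.18) leading upward and Bcl3 (−2.67 ± 0.59) and Pim3 (−0.80 ± 0.15) downward. Socs2 was also enriched in primed cells (0.54 ± 0.07), MEFs (1.65 ± 0.17) and Ago2 KO cells (1.47 ± 0.23). In primed cells 4 of 18 were enriched and 3 depleted, in MEFs 4 and 8, in Nudt21 knockdown cells 0 and 5, in day 3 control cells 0 and 0, and in Ago2 KO cells 1 and 0. Of the wider FGF-ERK list, 8 of 32 tested genes were enriched and 6 depleted in naive cells, 8 and 12 of 34 in primed cells, and 9 and 16 of 34 in MEFs. In day 3 control cells 0 and 0 of 32 were called, in Nudt21 knockdown cells 1 and 11 of 32, and in Ago2 KO cells 2 and 0 of 33. Over all genes, 22.6% were called enriched and 15.4% depleted in naive cells, 26.5% and 24.2% in primed cells, and 26.6% and 28.7% in MEFs. These shares were 0.196% and 0.45% in day 3 control, 9.04% and 12.8% in Nudt21 knockdown, and 5.47% and 1.05% in Ago2 KO cells. The RAS gene Nras was enriched at 322 ± 2.18 against 58.8 ± 0.794 CPM in naive cells (2.45 ± 0.10), at 1.54 ± 0.06 in primed cells and at 0.38 ± 0.10 in Nudt21 knockdown cells. The kinase gene Braf was enriched in naive cells (2.13 ± 0.17). In primed cells Etv4 (−2.35 ± 0.13) and Myc (−2.12 ± 0.14) were the most depleted.

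Ribosome occupancy, the ratio of polysome-bound to total RNA, was measured in naive ES cells. In control cells Il6st, Stat3 and Fgfr1 had lower and Fgf4 higher occupancy than the average transcript, 3 and 1 genes, where 24.1% and 18.8% of 15411 genes were called lower and higher. The median was −0.21 over the 9 genes and 0.02 over all genes. Stat3 stood at 24.9, 27.3 and 24.3 CPM in polysomes and at 79.5, 82.2 and 76.1 CPM in total RNA (−1.63 ± 0.07, edgeR adjusted p of 1.59e-11), and its 6 libraries fell into separate groups. Il6st stood at 82.7, 83.9 and 81.7 CPM in polysomes and at 140, 141 and 123 CPM in total RNA (−0.71 ± 0.07, edgeR adjusted p of 1.81e-07). Fgfr1 was lower at −0.23 ± 0.06, and Fgf4 higher at 259, 261 and 247 against 217, 216 and 223 CPM (0.22 ± 0.06, edgeR adjusted p of 0.00523). Lifr, Socs3, Spry2, Spry4 and Dusp6 overlapped between polysome and total RNA and were not called, but Lifr was without control total RNA replicate 3 (−0.27, edgeR adjusted p of 0.00524). Dusp6 (3.58 to 6.13 CPM in total RNA) and Spry4 (0.841 to 1.30 CPM) were low in these naive cells. Spry2 was at 28.3 ± 0.653 CPM (SD, n = 3) in control total RNA and at 25.2 ± 5.74 CPM (n = 2) in Ago2 KO cytoplasm, against 4.02 ± 3.52 CPM (n = 2) in the naive cytoplasm of the fraction table. These tables were made separately, and the levels were not tested against each other.

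The kinase gene Jak1, which acts between gp130 and STAT3, had an occupancy of −1.87 ± 0.09, from 63.5 ± 4.45 CPM in total RNA to 17.6 ± 2.27 CPM in polysomes, and 8 of the 18 wider LIF-STAT genes were lower and 2 higher. Of the wider FGF-ERK list, 6 of 34 were higher, among them Nras (0.43 ± 0.06), and 7 lower, led by Rps6ka3 (−0.84 ± 0.08) and Rps6ka1 (−0.48 ± 0.06). The shares over all genes were 18.8% called higher and 24.1% lower.

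After removal of DDX6 the occupancies of the 9 genes were close to those of control cells. The study reports that ribosome occupancy of P-body-associated mRNAs rose as a set after DDX6 loss. The tests of single genes here do not address a shift of that set. In degron cells 4 genes were lower and 2 higher, where 26.8% and 24% of 15638 genes were called lower and higher. Stat3 was at 26.5, 26.6 and 25.2 CPM in polysomes and at 81.4, 82.3 and 78.3 CPM in total RNA (−1.62 ± 0.05). Il6st (−0.65 ± 0.05), Fgfr1 (−0.28 ± 0.04) and Fgf4 (0.21 ± 0.04) also had separate groups. Spry2 (0.18 ± 0.06, edgeR adjusted p of 0.0154) and Dusp6 (−0.53 ± 0.18, edgeR adjusted p of 0.0193) were called in degron cells only, but the tests of their difference gave 0.06 ± 0.09 and −0.33 ± 0.29 with edgeR adjusted p of 0.955 and 0.904. Spry2 was not called without degron total RNA replicate 1 (0.0547) or by DESeq2. Dusp6, whose groups overlapped, was not called without degron polysome replicate 1 (0.1) or without degron total RNA replicate 1 (0.0778) or 3 (0.128). The change in occupancy was called for none of the 9 genes (0) and for 0% of 16345 genes, with 844 genes, 1 of them among the 9, at an unadjusted p under 0.05 by edgeR, and DESeq2 called 4 genes, none of the 9. For Il6st and Stat3, the change was 0.06 ± 0.09 and 0.00 ± 0.09 (SE). The largest change among genes with over 10 CPM was that of Lifr, 0.22 ± 0.10 with an edgeR adjusted p of 0.879.

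In total RNA, Lifr was lower after DDX6 removal, at 19.9, 20.5 and 20.5 CPM against 26.8, 26.8 and 22.8 CPM in control cells (−0.34 ± 0.08, edgeR adjusted p of 0.0369). That is 1 of the 9 genes, where 2.07% of 15380 genes were called lower and 1.24% higher. The call was lost without any of the 3 degron libraries or control replicates 1 and 2 (edgeR adjusted p of 0.102 to 0.18), and without control replicate 3 Fgf4 (−0.15), Il6st (−0.20) and Spry2 (−0.27) were called beside it. Stat3 (0.02 ± 0.06), Socs3 (−0.01 ± 0.09) and Fgfr1 (−0.12 ± 0.05) were not called.

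**Figure D4:**
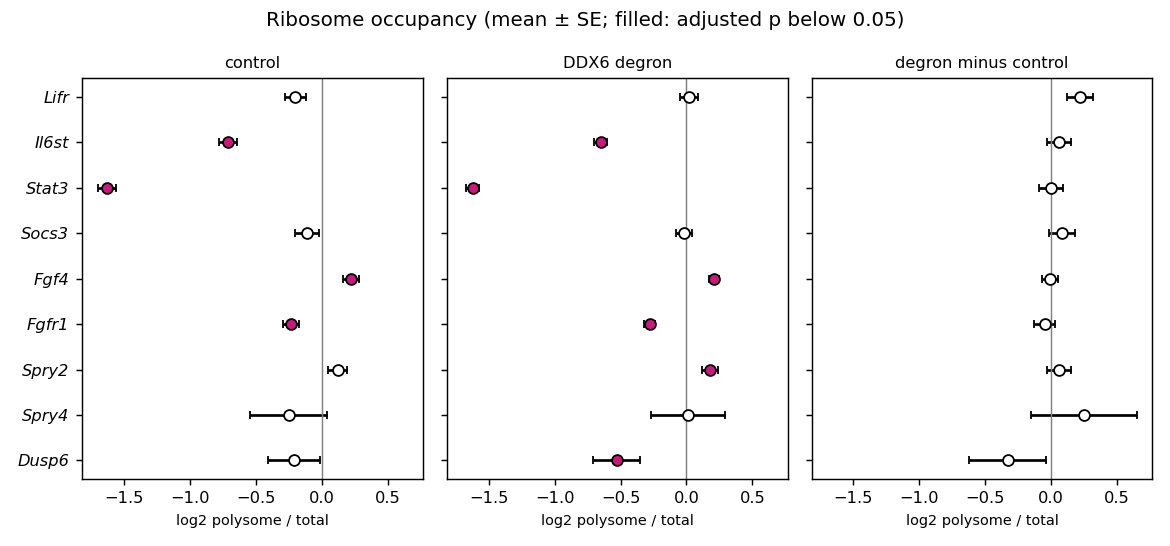
Log2 ratio of polysome-bound to total RNA for each gene in control and DDX6 degron ES cells and the difference between them, mean ± SE, on a shared x axis. Filled points passed an edgeR adjusted p under 0.05. Stat3 lies furthest to the left in both conditions, at −1.63 and −1.62, and no point is filled in the difference.

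The gene with the pattern most like each of the 9 was sought over the 10 group means of the P-body and cytoplasm table, among 10252 genes with a mean of at least 10 CPM, by Pearson correlation of log2(CPM + 1). The 10 means are not independent, since they come from 5 cell types in 2 fractions. Spry4 was most like Dusp4 (0.987), an ERK phosphatase gene of the wider list. Stat3 was most like Uvrag (0.992), Fgf4 like Shmt1 (0.984), Dusp6 like Pik3ip1 (0.972), Fgfr1 like Elmo2 (0.971), Spry2 like Lpar6 (0.956), Lifr like Rbbp4 (0.942), and Il6st and Socs3 like Cpne1 (0.924) and Hps1 (0.924).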

How the data were processed

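The authors deposited expected counts, that is estimated read counts per gene that need not be whole, in 3 tables: HISAT2 and featureCounts on mm10 refGene exons for the fractions, and salmon for the polysome and Ago2 KO tables. Between 5.05% and 25.74% of values per library were not whole, and all were rounded. The 10 deposited tables of the authors' own comparisons (fold changes and p-values) were not used, and 0 count columns lacked a sample.

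Genes with at least 10 summed reads in a comparison were tested by the quasi-likelihood test of edgeR 4.0.16 (R 4.3.3) with TMM scaling and Benjamini-Hochberg adjustment over all genes, called at an adjusted p under 0.05. Differences in enrichment or occupancy were interaction contrasts. The alternatives were DESeq2 1.42.0, its size factors in edgeR, no filter, filterByExpr, a replicate block, all groups of a table in 1 fit, and each library left out. Same-numbered libraries correlated at −0.058 to 0.542 in their deviations, which did not meet the rule for pairing.

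All 9 genes are described. From each wider list (18 LIF-STAT and 35 FGF-ERK genes), at most the 2 called genes with the largest changes in each direction were named per comparison, among those with a mean of at least 10 CPM over the libraries of the fit. The members and lists were chosen with earlier results of these data known. Intervals and read ratios (exact, 95%) cover counting error only. Some genes of the wider lists are not reported here by name.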

Additional observations from a re-analysis of the deposited data

Results flagged for a closer look

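The P-body enrichment of 9 gene and cell type pairs differed between cell types by the interaction contrast. Between naive and primed ES cells the differences were 1.33 for Il6st, 1.03 for Fgf4 and 3.54 for Spry4 on the log2 scale, all higher in naive cells. Between naive ES cells and MEFs they were 3.04 for Il6st, 1.32 for Stat3 and 4.98 for Spry4. Both Spry4 values rest on 1 read in the naive cytoplasm libraries. Between day 3 control cells and MEFs they were 1.37 for Il6st, 0.92 for Socs3 and 0.77 for Fgfr1.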

How the results depend on the processing

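The number of the 9 genes called depended on the processing in several comparisons, and the cause was not tested. With all groups of a table in 1 fit, the count went from 2 to 6 for enrichment in naive cells, from 6 to 3 in primed cells, from 0 to 4 in day 3 control cells and from 4 to 0 in Nudt21 knockdown cells, from 6 to 2 for the cytoplasm under Nudt21 knockdown, and from 1 to 3 for total RNA after DDX6 removal. With a replicate block it went from 2 to 5 in naive, 0 to 2 in day 3 control and 0 to 2 in Ago2 KO cells, and from 1 to 0 for total RNA, and the block moved no other count of the 9 genes by over 1.5 times. DESeq2 called 4 genes in day 3 control cells and 2 in total RNA, the fit without a filter 4 and 2 there and 5 in place of 3 for the difference between day 3 cells and MEFs, and size factors 2 in total RNA. Leaving out 1 library gave 1 to 9 genes in naive, 0 to 5 in day 3 control, 1 to 6 in Nudt21 knockdown and 0 to 5 in Ago2 KO cells, 2 to 8, 3 to 5, 0 to 5 and 0 to 3 for the differences between naive and primed cells, naive cells and MEFs, day 3 cells and MEFs, and knockdown and control, and 0 to 4 for total RNA. Leaving out naive cytoplasm replicate 1 or 2 turned the sign of a called value: Stat3 enrichment in naive cells was 0.57 or −0.14, Fgfr1 in naive against primed cytoplasm −0.30 or 0.56, Socs3 in naive against MEF cytoplasm −1.05 or 1.40, and the Spry2 difference in enrichment between naive and primed cells 1.36 or −0.70. Of the values of single genes under alternatives, 1696 kept their side of the threshold, of which 63 changed sign without a call, 100 gained and 61 lost a call, and 4 turned sign with a call.

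Over all genes, the fit of all groups called 5128 in place of 8209 in primed cells, 3308 in place of 102 in day 3 control cells, 2100 in place of 3501 in Nudt21 knockdown cells, 4877 in place of 7934 for the knockdown cytoplasm and 1138 in place of 509 for total RNA. In day 3 control cells DESeq2 called 2105, no filter 1940, filterByExpr 202 and the replicate block 802. In Ago2 KO cells 1095 genes became 1731 with DESeq2, 716 with size factors, 2643 without a filter and 4178 with the block. For the knockdown difference in enrichment 2 became 26, 62 and 1 with DESeq2, no filter and the block, for the change in occupancy 0 became 4, 16 and 6, and for total RNA 509 became 832, 863 and 82. Leaving out 1 library gave 2056 to 10018 genes in naive, 82 to 8752 in day 3 control, 1017 to 5729 in Nudt21 knockdown and 446 to 5617 in Ago2 KO cells. It gave 2242 to 9799 for naive against primed cytoplasm, and for the differences in enrichment 2293 to 7089 (naive and primed cells), 259 to 5546 (day 3 cells and MEFs) and 0 to 2185 (knockdown and control). The change in occupancy ranged from 0 to 52 genes and total RNA from 6 to 3373. Spry4 in naive and Ago2 KO cells and Fgf4 in MEFs were limited by depth.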
